A study of Homo sapiens with 18 samples.

Results

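Tumor cells meet immune cells through surface and secreted ligands that restrain T cells, natural killer (NK) cells and macrophages. The 9 genes followed here encode such checkpoint ligands, and they were taken as a named list: CD274, PDCD1LG2, CD276, PVR, NECTIN2, TNFRSF14, LGALS9, CD47 and NT5E. All 9 of 9 were listed in each of the 3 expression tables, which hold 25673, 25540 and 25557 genes. The 18 RNA-seq libraries fall into 6 groups of 3, from established triple-negative breast cancer (TNBC) lines. The BRCA1 wild-type line BT-549 carried a stable PBRM1shRNA and was compared with its own control group. BT-549 cells with a stable IRF1shRNA had another control group, in a separate table. Both control groups carried a stable control shRNA, and whether it was the same hairpin or line is not stated in the sources used here. The BRCA1-mutant line MDA-MB-436 carried an inducible MUC1 hairpin (tet-MUC1shRNA) and received doxycycline (DOX) at 500 ng/ml or vehicle, which was DMSO at 0.1%. All 6 groups carried a puromycin resistance marker, and no DOX-treated line with a control hairpin was analysed here, so that MUC1 silencing and DOX itself cannot be told apart.

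PD-L1 (encoded by CD274) and PD-L2 (encoded by PDCD1LG2) engage the inhibitory receptor PD-1 on T cells, and their genes are neighbours on the short arm of chromosome 9. Interferons induce CD274 through JAK kinases, STAT factors and IRF1, which binds repeats of the letters GAAA in the gene's promoter. PBRM1 is a subunit of the PBAF chromatin remodeling complex, IRF1 is an interferon-induced transcription factor, and MUC1 encodes a transmembrane mucin. In the GRCh38 annotation CD274 lies at chr9:5450503-5470566 and PDCD1LG2 at chr9:5510570-5571254. PVR (chr19:44643798-44663583) and NECTIN2 (chr19:44846175-44889228) share a chromosome as well. The other genes lie at chr15:73683966-73714518 (CD276), chr1:2555639-2565382 (TNFRSF14), chr17:27629798-27649560 (LGALS9), chr3:108043094-108091862 (CD47) and chr6:85449584-85495791 (NT5E).

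Promoter sequence is shown for the genes whose start regions hold an IRF-type repeat, because IRF1 is among the silenced genes. RefSeq start regions (GRCh38.p14, 250 bases before to 50 bases after each start) were matched for 8 of the 9 genes, all but PDCD1LG2. They were searched on both strands for GAAANNGAAA, the core of an IRF or interferon-stimulated response element, and for TTCNNNGAA, the core of a STAT site. The following stretches are written on the plus strand, and capitals mark the matches.
CD274, chr9:5450322-5450441: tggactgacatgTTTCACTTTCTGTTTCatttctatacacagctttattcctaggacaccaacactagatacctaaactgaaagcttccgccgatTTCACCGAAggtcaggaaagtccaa
LGALS9, chr17:27631168-27631192: agttgctttggTTTCTATTTCtttg
The CD274 region held 2 overlapping GAAANNGAAA matches on the minus strand, at -208 to -199 and -202 to -193 from the start, and a TTCNNNGAA match at -125 to -117. LGALS9 held 1 GAAANNGAAA match, also on the minus strand, ending on the start base. Neither motif was found in the windows of CD276, PVR, NECTIN2, TNFRSF14, CD47 or NT5E. Across 35116 start regions of this length, 3.57% held GAAANNGAAA, 0.259% held it at least 2 times, 7.66% held TTCNNNGAA and 0.439% held both. A match is a description of letters and not a binding site.

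Values are TPM, an abundance corrected for transcript length and set to a fixed total, so levels of different genes can be set side by side within a table. In the PBRM1, IRF1 and MUC1 tables, short noncoding RNAs held 75.7% to 79.2%, 84.8% to 88.5% and 12.0% to 15.2% of each library's TPM. Other genes are therefore placed lower in the BT-549 tables. Unless named as rescaled, folds are on TPM as deposited. Rescaled TPM are the values after these RNAs were removed and the remainder set to a total of 1000000. Folds are silenced over control on the log2(value + 1) scale, with their standard error (SE), and this scale understates the change of genes near or below 1 TPM. Genes were tested with limma when at least 3 of the 6 libraries of an experiment reached 1 TPM, and "rose", "fell", "higher" and "lower" refer to a Benjamini-Hochberg adjusted p under 0.05 unless levels alone are described. Called genes also had an absolute log2 fold above 1. TPM does not hold the read depth of a library, so depth is given only as the authors' mean normalized count of a gene over an experiment. The cultures were triplicates of 1 line, so that p-values rest on triplicates and not on a spread among lines. In the BT-549 fits as deposited, a trend over all genes replaced each gene's own spread among its triplicates. In these bulk libraries fewer expressing cells and less RNA per cell cannot be told apart.

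The targeted transcripts were lower in each silenced group. PBRM1 itself had 2.69 to 3.22 TPM in PBRM1shRNA cells against 10.7 to 12.6 TPM in control cells, and IRF1 had 1.03 to 1.30 TPM in IRF1shRNA cells against 4.49 to 5.22 TPM in control cells. MUC1 had 2.71 to 3.65 TPM in DOX-treated cells against 4.97 to 6.37 TPM in vehicle-treated cells (log2 fold -0.72 ± 0.13 (SE), limma adjusted p = 0.00148). IRF1 was also lower in PBRM1shRNA cells (log2 fold -1.59 ± 0.088 (SE)), as was MUC1 (-0.54 ± 0.087 (SE)). PBRM1 was lower in DOX-treated cells (-0.60 ± 0.064 (SE)), where IRF1 did not pass the test (0.04 ± 0.097 (SE)). In IRF1shRNA cells neither PBRM1 (0.015 ± 0.15 (SE)) nor MUC1 (-0.08 ± 0.15 (SE)) passed as deposited. Rescaled PBRM1 was higher there (0.13 ± 0.054 (SE), limma adjusted p = 0.0443). Of 18 leukocyte and erythroid markers, 1, 1 and 2 passed the filter in the PBRM1, IRF1 and MUC1 experiments. The pan-leukocyte gene PTPRC stayed at or below 0.0483 TPM in every BT-549 library and at or below 0.201 TPM in every MDA-MB-436 library. The 4 mesenchymal markers VIM, ZEB1, FN1 and CDH2 passed in all 3 experiments.

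PBRM1 silencing in BT-549 cells was accompanied by lower RNA of both PD-1 ligands. CD274 had 1.82, 1.55 and 1.85 TPM in PBRM1shRNA cells against 5.0, 4.55 and 5.32 TPM in control cells. Every PBRM1shRNA library was below every control library, and the mean of 1.74 ± 0.167 TPM was 0.351 of the control mean of 4.96 ± 0.388 TPM (SD, n = 3 each). The log2 fold was -1.12 ± 0.084 (SE) as deposited and -1.47 ± 0.059 (SE) on rescaled TPM (limma adjusted p = 2.39e-39 and 6.17e-10). The first of these p-values rests on the trend over all genes. With the gene's own spread, without variance moderation, the limma adjusted p as deposited was 0.00224. PDCD1LG2 had 1.97, 1.51 and 1.94 TPM in PBRM1shRNA cells against 4.36, 4.02 and 4.13 TPM in control cells. The groups again did not overlap. The fold of PDCD1LG2 was -0.88 ± 0.083 (SE) as deposited and -1.19 ± 0.076 (SE) on rescaled TPM (limma adjusted p = 2.77e-25 and 4.14e-08). Without variance moderation its limma adjusted p as deposited was 0.00452.

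The ligands of the NK and T cell receptor TIGIT, which also bind the activating receptor CD226, differed in size of change. PVR had 16.0, 14.2 and 15.1 TPM in PBRM1shRNA cells against 25.3, 22.5 and 25.4 TPM in control cells. These groups were separate, with a log2 fold of -0.66 ± 0.088 (SE) and limma adjusted p = 4.74e-13. NECTIN2 had 22.1, 20.6 and 20.9 TPM in PBRM1shRNA cells against 25.3, 21.0 and 25.4 TPM in control cells, where the lowest control library was below the highest silenced library. Its log2 fold was -0.16 ± 0.087 (SE), limma adjusted p = 0.104. CD276, which encodes the B7 family protein B7-H3, behaved likewise, with 6.58, 6.46 and 6.67 TPM in PBRM1shRNA cells against 7.76, 6.56 and 7.42 TPM in control cells (log2 fold -0.12 ± 0.088 (SE), limma adjusted p = 0.233). On rescaled TPM both genes fell and their groups did not overlap, where 50.4% of all genes tested fell. The rescaled folds were -0.24 ± 0.043 (SE) for NECTIN2 and -0.21 ± 0.047 (SE) for CD276 (limma adjusted p = 2.79e-04 and 0.0016). With the replicate number as a block, both also passed the test as deposited (limma adjusted p = 0.0015 for NECTIN2 and 0.0267 for CD276). Without control library b, the lowest control library of both genes, they also passed, and the number of ligand genes past the test was then 7. NECTIN2 passed as well with quantile scaling (limma adjusted p = 0.00497) and trimmed-mean scaling (limma adjusted p = 0.0246). Both NECTIN2 and CD276 passed with array weights, in a fit that did not converge.

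NT5E encodes CD73, the surface enzyme that makes adenosine from AMP, and was the most abundant of the 9 transcripts in BT-549 cells. It had 68.4, 59.6 and 65.7 TPM in PBRM1shRNA cells against 93.9, 83.4 and 97.1 TPM in control cells, with no overlap (log2 fold -0.50 ± 0.086 (SE), limma adjusted p = 4.29e-08). CD47, which signals to SIRPA on macrophages and restrains phagocytosis, had 25.3, 22.4 and 24.6 TPM in PBRM1shRNA cells against 31.0, 26.1 and 30.7 TPM in control cells. The groups of CD47 were separate by a small margin, and its log2 fold was -0.27 ± 0.087 (SE) with limma adjusted p = 0.00461. This call was lost without control library a (limma adjusted p = 0.068) and without variance moderation (limma adjusted p = 0.0849).

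LGALS9 and TNFRSF14 were near the lower end of detection and were under the filter as deposited. LGALS9 encodes galectin-9, a lectin that binds HAVCR2 (TIM-3) on T cells, and had 0.0493, 0.103 and 0.0900 TPM in PBRM1shRNA cells against 0.736, 0.634 and 0.749 TPM in control cells. TNFRSF14, the receptor family member that engages BTLA and CD160 on lymphocytes, had 0.0170, 0.0197 and 0.0104 TPM in PBRM1shRNA cells against 0.387, 0.406 and 0.367 TPM in control cells. Neither gene's groups overlapped, and the mean of TNFRSF14 in PBRM1shRNA cells was 0.0406 of the control mean. The authors' mean normalized count over the experiment was 25.5 for LGALS9 and 56.5 for TNFRSF14, against 504 for CD274. On rescaled TPM both genes entered the test only through their 3 control libraries, so that a difference was built into their entry. Their rescaled log2 folds were -1.63 ± 0.11 (SE) for LGALS9 and -1.35 ± 0.12 (SE) for TNFRSF14. The near copies LGALS9B and LGALS9C were listed at 0 in all 6 libraries, and the antisense gene TNFRSF14-AS1 at 0.00733 TPM or less.

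Counted together, 5 of the 7 tested ligand genes fell in PBRM1shRNA cells and 0 rose, where 34.8% of all 10639 genes tested fell and 24.6% rose. CD274 was called lower, as were 3.86% of all genes tested. Groups did not overlap for the 5 genes that fell, as for 35.4% of all genes tested in that direction. The median log2 fold of the 7 was -0.50, against -0.05 over all genes tested. On rescaled TPM the same 7 genes all fell, where 50.4% of 12703 genes did, and CD274 and PDCD1LG2 were called lower, as were 6.92% of all genes. That scale moved the median of all genes by -0.11, to -0.16, and changed the share of higher genes among those past the test (41.4% as deposited, 30.9% on rescaled TPM). Relative to the rescaled median of all genes, the folds were -1.31 for CD274, -1.03 for PDCD1LG2, -0.60 for PVR, -0.42 for NT5E, -0.19 for CD47, -0.08 for NECTIN2 and -0.05 for CD276. The PD-1 ligands had the largest relative falls of these 7, and NECTIN2 and CD276 the smallest.

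**Figure D1:**
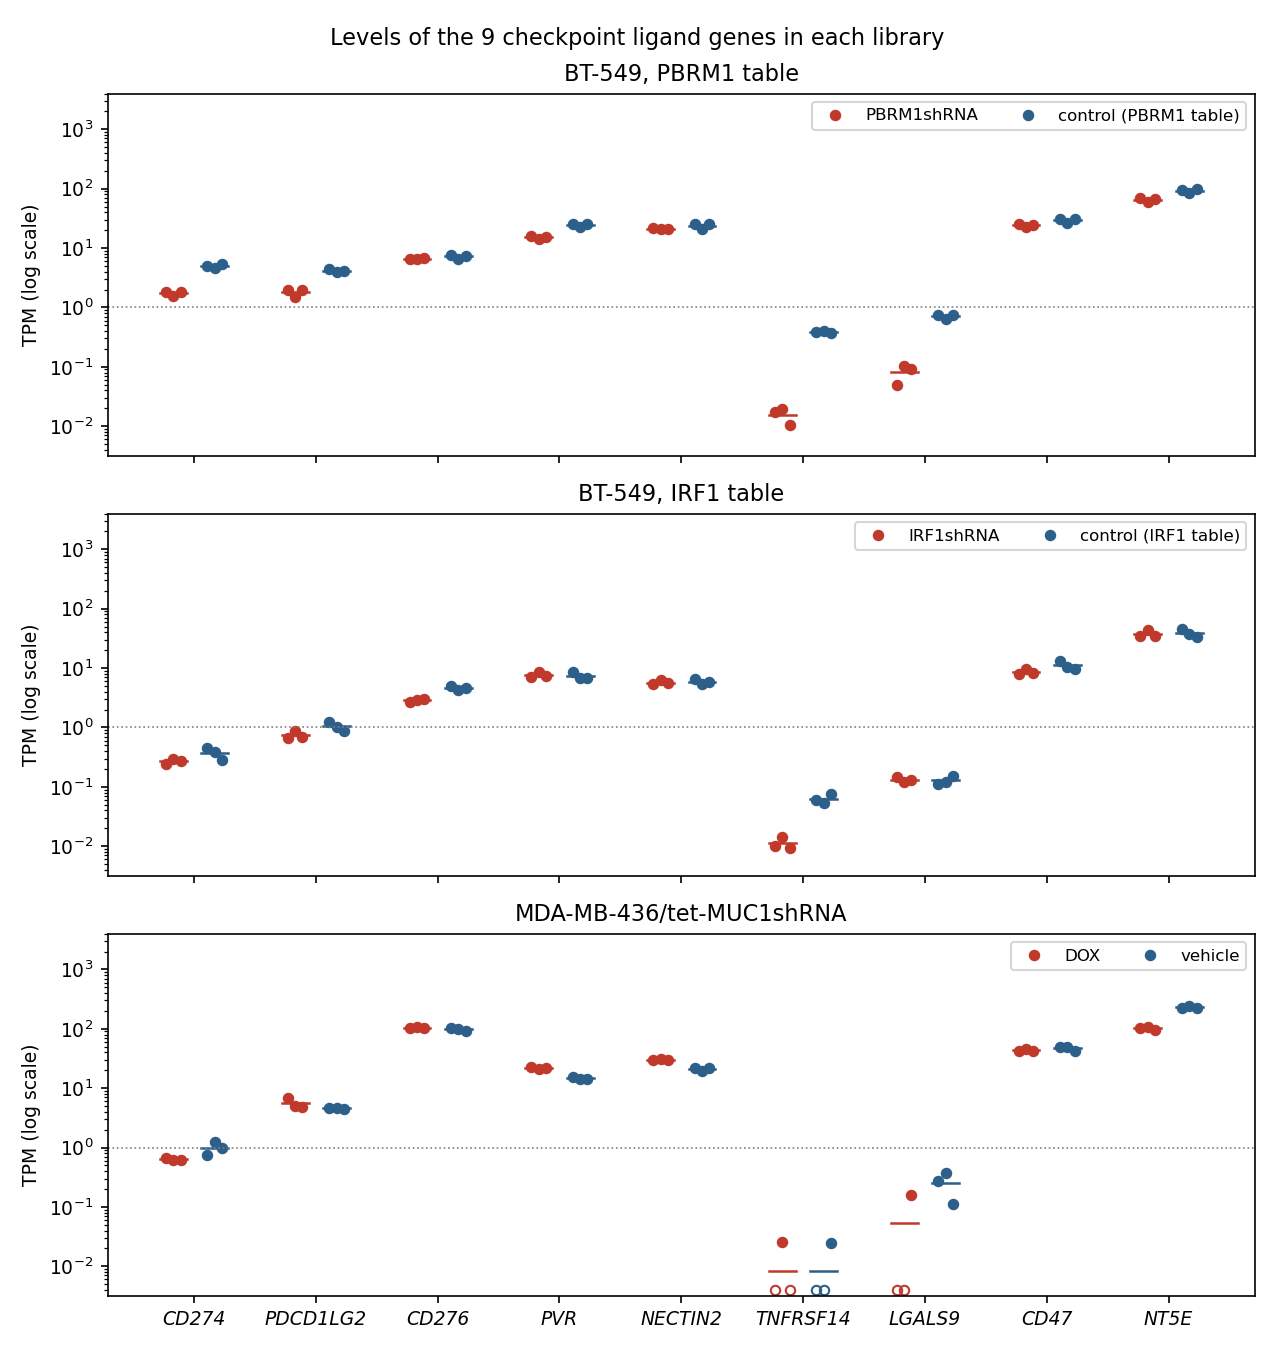
TPM of each ligand gene in every library on a log axis, with the silenced libraries (red) left of their control libraries (blue), horizontal bars at group means, open circles for libraries listed at 0 and a dotted line at 1 TPM. CD274 sits between 1.55 and 1.85 TPM in PBRM1shRNA cells and between 4.55 and 5.32 TPM in their control cells, and NT5E in DOX-treated cells sits between 95.5 and 106 TPM, below the vehicle libraries.

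Genes that work beside the ligands were taken from 11 lists. Over all 10639 genes tested in the PBRM1 experiment 34.8% fell and 24.6% rose. In PBRM1shRNA cells 5 of 6 tested B7 and butyrophilin genes fell and 0 rose (median log2 fold -0.66), and BTN3A3, a butyrophilin, was called at -1.49 ± 0.077 (SE). Among 29 tested regulators of PD-L1, 16 fell and 5 rose (median -0.25). The called ones included the interferon signaling factors STAT2 (-2.13 ± 0.088), IRF9 (-1.99 ± 0.088) and IRF1 (-1.59 ± 0.088). In the list of the CD47 axis and other phagocytosis signals 5 of 9 fell and 1 rose, led by B2M, the light chain of MHC class I, at -1.44 ± 0.085 (SE) and by CD24, a ligand of SIGLEC10, at -1.28 ± 0.086 (SE). The NK cell ligand HLA-E was called at -1.57 ± 0.088 (SE), with 2 of 4 genes of its list lower and 2 higher. Of 10 tested neighbours of CD274 on chromosome arm 9p, 2 fell and 3 rose, and the largest change was that of ERMP1, an endoplasmic reticulum peptidase, at 0.88 ± 0.088 (SE).

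The remaining lists were mixed, beside the same shares of all genes tested (34.8% lower and 24.6% higher). In the adenosine pathway 5 of 8 tested genes rose and 2 fell (median log2 fold 0.19), led by ENPP1, a nucleotide pyrophosphatase, at 0.77 ± 0.087 (SE), while NT5E fell. Among galectins and HAVCR2 ligands 2 of 4 rose and 2 fell, with LGALS8 called at -1.15 ± 0.071 (SE). Of 3 TNF superfamily ligands 1 rose and 1 fell, with TNFSF15 called at -1.28 ± 0.074 (SE), and of 2 nectin-like genes 1 fell. Of 17 lymphocyte and myeloid receptors of the ligands, SIRPA alone passed the filter and was lower (-0.36 ± 0.086). All 16 type I interferon targets fell, with a median of -5.54, and their summed level was 51.5 to 59.6 TPM in PBRM1shRNA cells against 3166 to 3588 TPM in control cells. That list was in part chosen by the study on these samples and is no independent evidence of its direction. Summed leukocyte and erythroid markers, most of it CD68, were 12.6 to 13.9 TPM in PBRM1shRNA cells against 31.0 to 35.4 TPM in control cells, and summed epithelial markers were 34.0 to 39.9 TPM against 3.99 to 4.65 TPM. Of the 5 epithelial markers 2 passed the filter. Summed mesenchymal markers were 461 to 515 TPM in PBRM1shRNA cells against 403 to 465 TPM in control cells, with overlap. FN1, a member of that sum, went the other way, with a rescaled log2 fold of -1.48, so the sums do not stand for each marker. The part of these shifts in the ligand changes was not tested.

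In BT-549 cells with silenced IRF1 CD276 fell on both scales, while the calls of several other ligand genes depended on the scale. CD276 had 2.70, 2.95 and 2.98 TPM in IRF1shRNA cells against 5.07, 4.27 and 4.68 TPM in control cells. The groups did not overlap, and CD276 was the ligand gene past the test as deposited (log2 fold -0.55 ± 0.14 (SE), limma adjusted p = 6.41e-04) and had the largest rescaled fall (-0.56 ± 0.071 (SE), limma adjusted p = 2.33e-05). It kept its call without each library in turn.

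The PD-1 ligands had low TPM in this table, beside authors' mean normalized counts of 264 for CD274 and 443 for PDCD1LG2. CD274 had 0.244, 0.300 and 0.270 TPM in IRF1shRNA cells against 0.455, 0.381 and 0.287 TPM in control cells, and PDCD1LG2 had 0.664, 0.880 and 0.685 TPM against 1.24, 1.02 and 0.871 TPM in control cells. As deposited both genes were under the filter and both pairs of groups overlapped. On rescaled TPM the overlap was gone: CD274 had 2.12, 2.19 and 2.32 in IRF1shRNA cells against 2.99, 3.0 and 2.37 in control cells, and PDCD1LG2 had 5.78, 6.43 and 5.90 against 8.15, 8.02 and 7.18 in control cells. The rescaled log2 fold was -0.32 ± 0.068 (SE) for PDCD1LG2 (limma adjusted p = 0.00132) and -0.23 ± 0.086 (SE) for CD274 (limma adjusted p = 0.0311). The call of CD274 was lost without variance moderation (limma adjusted p = 0.0874), and its highest silenced and lowest control library differed by little.

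Among the other ligands, CD47 had 7.94, 9.64 and 8.17 TPM in IRF1shRNA cells against 13.2, 10.6 and 9.65 TPM in control cells. These groups touched without overlapping, and the fold was -0.34 ± 0.15 (SE) as deposited (limma adjusted p = 0.0834) and -0.25 ± 0.046 (SE) on rescaled TPM (limma adjusted p = 4.26e-04). PVR had 7.13, 8.67 and 7.49 TPM in IRF1shRNA cells against 8.51, 6.88 and 6.68 TPM in control cells. The groups overlapped (log2 fold 0.07 ± 0.15 (SE), limma adjusted p = 0.789), whereas rescaled PVR was 62.0, 63.3 and 64.5 in IRF1shRNA cells against 55.9, 54.2 and 55.1 in control cells, with a fold of 0.20 ± 0.043 (SE) and limma adjusted p = 0.00151. NECTIN2 and NT5E did not pass the test on either scale, and their folds changed sign between scales (NECTIN2 -0.04 as deposited and 0.07 rescaled, NT5E -0.05 and 0.07).

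The lowest ligands again were LGALS9 and TNFRSF14. LGALS9 had 0.145, 0.119 and 0.129 TPM in IRF1shRNA cells against 0.112, 0.121 and 0.150 TPM in control cells, with overlapping groups and a rescaled fold of 0.08 ± 0.11 (SE, limma adjusted p = 0.562). TNFRSF14 had 0.0101, 0.0145 and 0.00933 TPM in IRF1shRNA cells against 0.0595, 0.0543 and 0.0753 TPM in control cells. Its groups did not overlap, but it was under the filter on both scales, and without a filter its fold was -0.07 ± 0.0077 (SE, limma adjusted p = 0.00436). The authors' mean normalized count of TNFRSF14 was 58.6 in this experiment.

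In total 1 of 5 tested ligand genes fell and 0 rose as deposited, where 18.5% of 9135 genes fell and 5.76% rose. Groups did not overlap for CD276 and CD47, which were lower in all IRF1shRNA libraries, as were 25% of all genes tested. On rescaled TPM 4 of 8 fell and 1 rose, where 29.4% of 12722 genes fell and 35.4% rose. The split of all genes moved with the scale, with 23.7% of genes past the test higher as deposited and 54.6% on rescaled TPM. The median log2 fold of the tested ligand genes was -0.05 as deposited and -0.08 on rescaled TPM, against -0.06 and 0.03 over all genes.

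**Figure D2:**
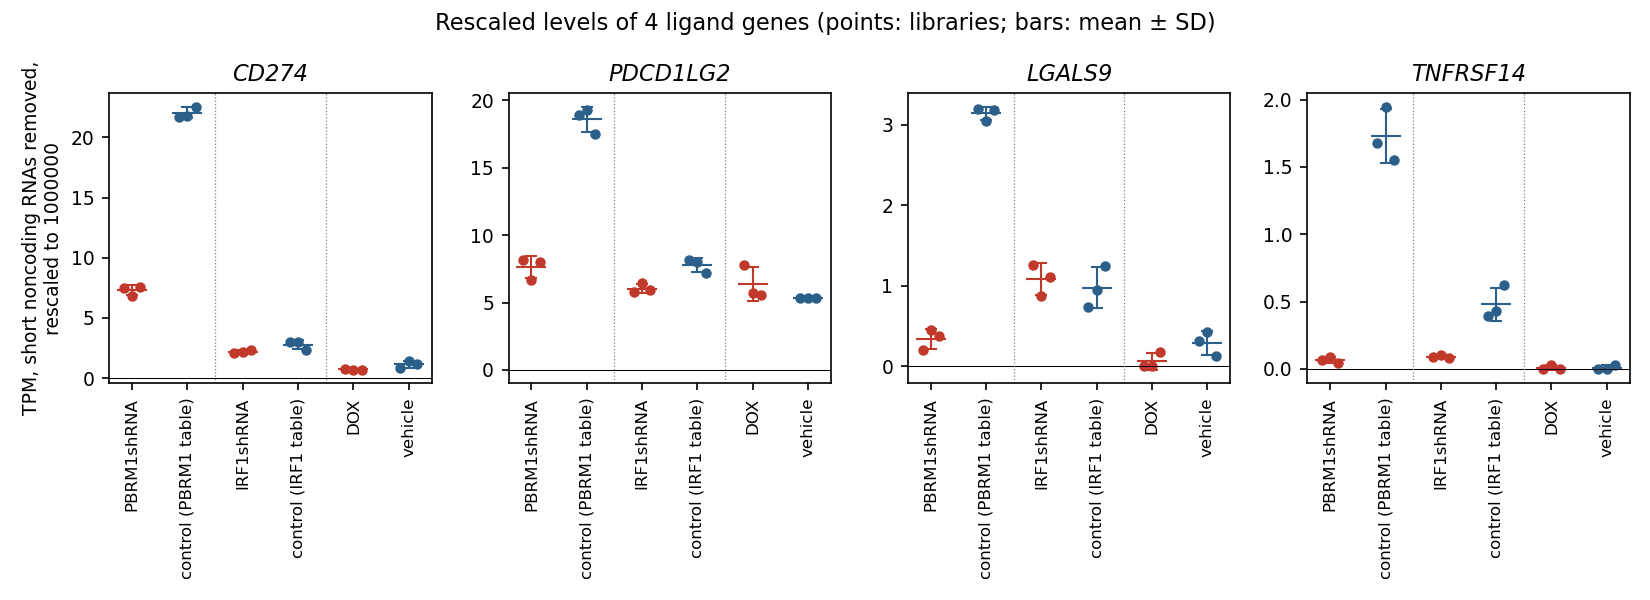
Rescaled TPM of CD274, PDCD1LG2, LGALS9 and TNFRSF14 in every library (points) with mean ± SD (bars, n = 3), for each silenced group (red) left of its control group (blue). Rescaled CD274 averages 7.32 in PBRM1shRNA cells against 22.04 in their control cells, and 2.21 in IRF1shRNA cells against 2.79 in their control cells.

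Among the partner lists, 4 of 5 tested B7 and butyrophilin genes fell in IRF1shRNA cells and 0 rose (median log2 fold -0.58). They were led by BTN3A1, a butyrophilin, at -0.61 ± 0.081 (SE). Of 8 genes of the CD47 axis and other phagocytosis signals 4 fell, with CD24 called at -2.03 ± 0.14 (SE) and B2M at -1.40 ± 0.15 (SE). Of 29 regulators of PD-L1, 6 fell and 1 rose (median -0.09), where 18.5% of all genes tested fell and 5.76% rose. The 6 include IRF1, the target of this hairpin (-1.40 ± 0.13), whose fall was set by the design. IRF9 (-1.36 ± 0.14) was among the called ones. On rescaled TPM 11 of 30 regulators fell and 10 rose (median -0.0022), where 29.4% of all genes fell and 35.4% rose. Of 4 galectins and HAVCR2 ligands 3 fell, led by the chromatin protein HMGB1 (-0.65 ± 0.15), of 3 nectin-like genes 2 fell, led by CADM4 (-0.65 ± 0.11), and of 4 NK cell ligands 1 fell, which was HLA-E (-0.93 ± 0.12). The adenosine pathway had 1 of 5 lower, the neighbours of CD274 had 1 of 10 higher and 1 lower, and 0 of 2 TNF superfamily ligands and 0 of 1 receptors passed. These counts also moved with the scale. On rescaled TPM 2 of 4 nectin-like genes rose and 2 fell, and 2 of 8 NK cell ligands rose and 3 fell. In the CD47 axis 2 of 9 rose and 4 fell, and 5 of 10 neighbours of CD274 rose and 2 fell. In the adenosine pathway 2 of 8 rose and 5 fell. Galectins (3 of 4) and B7 and butyrophilin genes (6 of 7) fell with 0 higher. All 16 interferon targets fell, with a median of -2.91 and a summed level of 27.7 to 36.6 TPM in IRF1shRNA cells against 525 to 594 TPM in control cells. Summed leukocyte and erythroid markers were 5.98 to 6.91 TPM in IRF1shRNA cells against 8.25 to 9.37 TPM in control cells. Summed epithelial markers were 0.833 to 1.01 TPM in IRF1shRNA cells against 1.73 to 2.38 TPM in control cells, and 1 of the 5 passed the filter. Summed mesenchymal markers were 224 to 272 TPM against 310 to 414 TPM. The part of these marker shifts in the ligand changes was not tested.

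In MDA-MB-436/tet-MUC1shRNA cells the ligands moved in both directions. NT5E had 104, 106 and 95.5 TPM in DOX-treated cells against 227, 245 and 221 TPM in vehicle-treated cells. Every DOX library was far below every vehicle library, and the mean of 102 ± 5.71 TPM was 0.441 of the vehicle mean of 231 ± 12.2 TPM (SD, n = 3 each). NT5E was the called ligand gene, with a log2 fold of -1.17 ± 0.052 (SE) and limma adjusted p = 6.68e-07. Leaving out each library in turn gave folds of -1.20 to -1.13.

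The TIGIT ligands rose together. PVR had 22.5, 21.4 and 22.2 TPM in DOX-treated cells against 15.7, 14.1 and 14.2 TPM in vehicle-treated cells, and NECTIN2 had 29.6, 30.9 and 29.9 TPM against 22.2, 19.5 and 21.7 TPM. Neither pair of groups overlapped. The log2 fold was 0.56 ± 0.061 (SE) for PVR and 0.50 ± 0.060 (SE) for NECTIN2 (limma adjusted p = 9.06e-05 and 1.68e-04).

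CD276, CD47 and PDCD1LG2 did not pass the test. CD276 was abundant, with 104, 108 and 101 TPM in DOX-treated cells against 101, 100 and 90.6 TPM in vehicle-treated cells (log2 fold 0.10 ± 0.050 (SE), limma adjusted p = 0.121). CD47 had 41.7, 45.2 and 42.7 TPM in DOX-treated cells against 48.9, 48.8 and 42.8 TPM in vehicle-treated cells, and its groups overlapped (-0.11 ± 0.061 (SE), limma adjusted p = 0.160). CD47 was lower without vehicle library 3 (limma adjusted p = 0.021) and, with all libraries, under quantile scaling (limma adjusted p = 0.0362). PDCD1LG2 had 6.81, 4.98 and 4.88 TPM in DOX-treated cells against 4.64, 4.66 and 4.51 TPM in vehicle-treated cells. Its DOX libraries were all higher, with library 1 apart from the others (0.21 ± 0.12 (SE), limma adjusted p = 0.170). Without DOX library 1 the fold of PDCD1LG2 was 0.08 ± 0.10 (SE, limma adjusted p = 0.560).

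CD274 was close to the filter in MDA-MB-436 cells, and the authors' mean normalized count was 15.5. It had 0.675, 0.624 and 0.606 TPM in DOX-treated cells against 0.749, 1.26 and 0.993 TPM in vehicle-treated cells, so that the groups did not overlap. Without a filter its fold was -0.28 ± 0.11 (SE, limma adjusted p = 0.0887). LGALS9 was listed at 0, 0 and 0.159 TPM in DOX-treated cells against 0.273, 0.373 and 0.112 TPM in vehicle-treated cells, with groups that overlapped and a mean normalized count of 1.22 in the authors' table. Its near copy LGALS9C was listed at 0.586 TPM in 1 DOX library and at 0 in the other libraries. TNFRSF14 was listed at 0, 0.0252 and 0 TPM in DOX-treated cells against 0, 0 and 0.0248 TPM in vehicle-treated cells, so no fold was drawn for it.

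Of 6 tested ligand genes 2 rose and 1 fell, where 27% of 13229 genes rose and 23.4% fell, and 1.35% of all genes were called lower. Groups did not overlap for 4 genes that were higher in DOX-treated cells (PVR, NECTIN2, CD276 and PDCD1LG2) and for NT5E, where 31.5% of all genes tested did so upward and 27.7% downward. CD276 was separate by a narrow margin, and its groups overlapped on rescaled TPM. The counts past the test were equal on rescaled TPM, where 26.3% of all genes rose and 25.1% fell. The composition of the ligand RNA shifted. NT5E made up 33.7%, 33.5% and 32.1% of the summed TPM of the 9 genes in DOX-treated cells against 54.0%, 56.5% and 55.9% in vehicle-treated cells. CD276 made up 33.6%, 34.0% and 34.1% in DOX-treated cells against 24.06%, 23.1% and 22.9% in vehicle-treated cells. In PBRM1shRNA cells CD274 made up 1.28%, 1.22% and 1.35% of the same sum against 2.58%, 2.69% and 2.70% in control cells, while the shares of CD276, CD47 and NECTIN2 were higher in every PBRM1shRNA library. Such shares do not depend on the scaling of a library, and they show unequal change and not that a gene stayed constant.

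**Figure D3:**
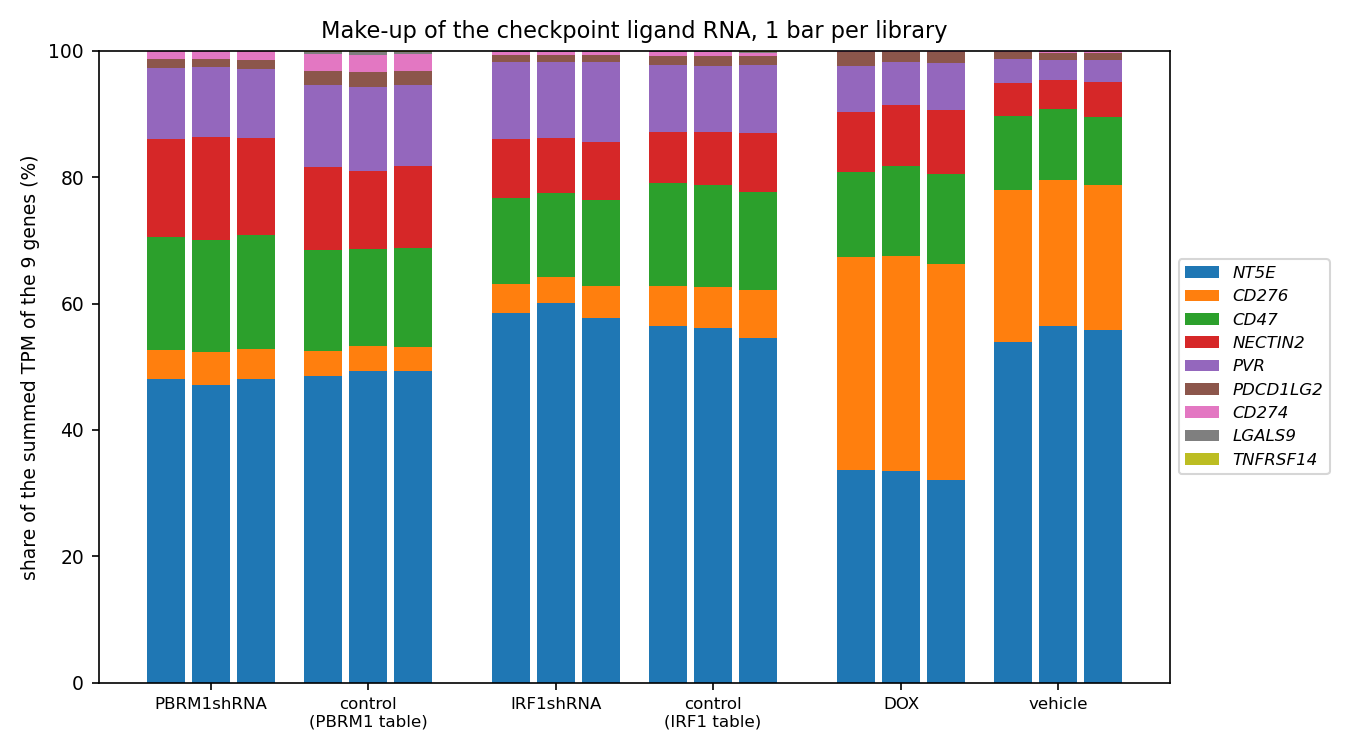
Share of each ligand gene in the summed TPM of the 9 genes (percent), 1 bar per library, with each silenced group left of its control group. NT5E takes 32.1% to 33.7% in DOX-treated cells against 54.0% to 56.5% in vehicle-treated cells.

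Partner genes in DOX-treated MDA-MB-436 cells moved in both directions too. Over all 13229 genes tested 27% rose and 23.4% fell, and several list counts lay near those shares. Of 31 regulators of PD-L1, 11 rose and 4 fell (median log2 fold 0.04), and the called ones were B3GNT3, a glycosyltransferase that acts on PD-L1 in breast cancer cells, at 2.06 ± 0.14 (SE) and SOCS3, a feedback inhibitor of JAK kinases, at 1.15 ± 0.070 (SE). Of 10 NK cell ligands 3 fell and 2 rose, with the NKG2D ligands ULBP2 (-1.51 ± 0.096) and RAET1E (-1.07 ± 0.17) called. Of 7 B7 and butyrophilin genes 3 fell and 1 rose, which was VSIR, the gene of VISTA, at 0.83 ± 0.076 (SE). Of 2 receptors both fell, with TNFRSF9 (4-1BB) called at -1.03 ± 0.12 (SE). In the CD47 axis 5 of 9 fell and 1 rose, in the adenosine pathway 3 of 9 rose and 3 fell, and among galectins 2 of 4 rose and 2 fell. Of 4 nectin-like genes 2 fell, led by CADM1 (-0.72 ± 0.12), and of 3 TNF superfamily ligands 1 fell, which was CD70 (-0.78 ± 0.13). Of 10 neighbours of CD274, 3 rose and 4 fell, led by the mitochondrial adenylate kinase AK3 (0.95 ± 0.040). Of 10 tested interferon targets 7 fell and 1 rose (median -0.42), while their summed level was 158 to 171 TPM in DOX-treated cells against 141 to 164 TPM in vehicle-treated cells. Summed epithelial markers were 1648 to 1724 TPM in DOX-treated cells against 836 to 867 TPM in vehicle-treated cells. Summed mesenchymal markers were 1385 to 1460 TPM in DOX-treated cells against 2080 to 2196 TPM in vehicle-treated cells. The part of these marker shifts in the ligand changes was not tested.

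NT5E had the highest mean TPM of the 9 genes in 5 of the 6 groups. In PBRM1shRNA cells NT5E averaged 64.6 TPM, followed by CD47, NECTIN2 (21.2 TPM), PVR (15.1 TPM) and CD276 (6.57 TPM), and then by PDCD1LG2 (1.81 TPM) and CD274 (1.74 TPM), which overlapped. In their control cells CD274 (4.96 TPM) stood above PDCD1LG2 (4.17 TPM), and PVR (24.4 TPM) and NECTIN2 (23.9 TPM) overlapped. IRF1shRNA cells and their control cells had the same order of the 9 means, from NT5E (37.3 and 38.7 TPM) over CD47, PVR, NECTIN2, CD276, PDCD1LG2, CD274 and LGALS9 to TNFRSF14 (0.0113 and 0.0630 TPM), and CD47 and PVR overlapped in the IRF1shRNA cells. In DOX-treated cells CD276 (104 TPM) and NT5E (102 TPM) overlapped at the top and LGALS9 and TNFRSF14 at the bottom, while NT5E (231 TPM) stood above CD276 (97.4 TPM) in vehicle-treated cells. NT5E lay between the percentiles 93.3 and 98.5 of all genes other than short noncoding RNAs in the 6 groups.

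The folds were then compared between experiments in a limma model of all 18 libraries on rescaled TPM, for 6 ligand genes among 11548 genes. The hairpin, the table and the control group differ together between the BT-549 experiments, and the cell line differs as well against MDA-MB-436. PVR had a rescaled fold of -0.76 in the PBRM1 experiment, 0.20 in the IRF1 experiment and 0.55 in the MUC1 experiment, and all 3 pairwise differences passed the test. Its difference was -0.96 ± 0.059 (SE, adjusted p = 5.91e-11) for PBRM1 minus IRF1, -1.31 ± 0.059 (SE, adjusted p = 3.99e-13) for PBRM1 minus MUC1 and -0.35 ± 0.059 (SE, adjusted p = 3.74e-05) for IRF1 minus MUC1. NT5E fell more in the MUC1 experiment than in the PBRM1 experiment (PBRM1 minus MUC1 0.61 ± 0.062 (SE), adjusted p = 6.49e-08). Its fold in the PBRM1 experiment (-0.58) also differed from that in the IRF1 experiment (0.07), which did not pass the test (PBRM1 minus IRF1 -0.65 ± 0.062 (SE), adjusted p = 2.62e-08).

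PDCD1LG2 fell more after PBRM1 than after IRF1 silencing (-0.87 ± 0.13 (SE), adjusted p = 1.27e-05). Its rescaled mean was 18.6 in the control of the PBRM1 experiment and 7.78 in the control of the IRF1 experiment, beside 7.60 in PBRM1shRNA cells. The part of these unequal control levels in the difference was not tested. CD276 went the other way, with a larger fall after IRF1 silencing (PBRM1 minus IRF1 0.35 ± 0.085 (SE), adjusted p = 0.00132), also on TPM as deposited (0.43 ± 0.13 (SE), adjusted p = 0.00534). For CD47 no difference between the BT-549 experiments was shown, with an interval of -0.24 to 0.03 for PBRM1 minus IRF1, nor between IRF1 and MUC1, with an interval of -0.26 to 0.01. In all, 5 of 6 ligand genes differed for PBRM1 minus IRF1, 6 of 6 for PBRM1 minus MUC1 and 5 of 6 for IRF1 minus MUC1, where 68.2%, 67.1% and 60.2% of all genes differed. On TPM as deposited, where PDCD1LG2 was not tested, 3 of 5 ligand genes differed for PBRM1 minus IRF1, 3 of 5 for PBRM1 minus MUC1 and 4 of 5 for IRF1 minus MUC1, beside 44.7%, 47.8% and 39.9% of all genes.

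**Figure D4:**
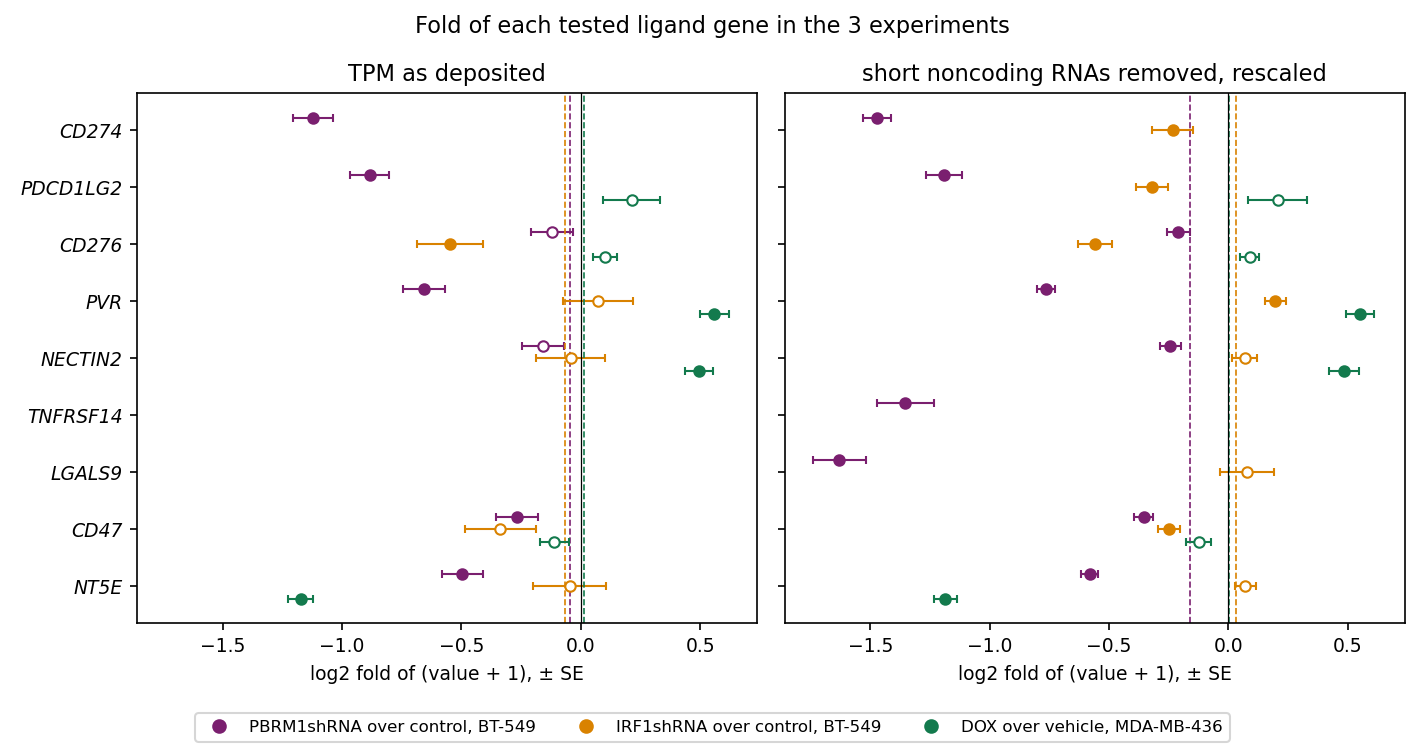
Log2 fold of value + 1 (silenced over control) ± SE for each tested ligand gene in the PBRM1 (purple), IRF1 (orange) and MUC1 (green) experiments, on TPM as deposited (left) and rescaled TPM (right), with filled points for adjusted p under 0.05 and dashed lines at the median of all genes. PVR lies at -0.76, 0.20 and 0.55 on the right, and CD274 at -1.47 and -0.23 in the BT-549 experiments. The purple LGALS9 and TNFRSF14 points on the right belong to genes that passed the filter only through their control libraries. A difference was built into their entry, so their filling carries no weight.

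The genes most like PDCD1LG2 were taken by the distance between their 3 rescaled folds and its folds of -1.19, -0.32 and 0.21. Among the nearest of 11548 genes were C1RL (distance 0.0454), ARHGEF2 (0.0788), SFXN3 (0.0957) and AARD (0.120). C1RL, a complement protease-like gene, had folds of -1.23, -0.33 and 0.23. This likeness rests on 3 values a gene, and the fold of PDCD1LG2 in the MUC1 experiment did not pass the test and was 0.08 as deposited without DOX library 1. CD274 was not tested in all 3 experiments and has no such neighbours.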

How the data were processed

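RNA-seq was performed on BT-549 and MDA-MB-436 cells cultured in triplicate, with polyadenylated RNA libraries made with a stranded kit. The submitters' processing notes name STAR, GRCh38 and DESeq2, without versions. For the annotation, the read counter and the TPM program the sources used here give no name. The authors deposited 1 TPM table per experiment, with columns summing to 1000000. The authors' deposited DESeq2 tables also hold a mean normalized count per gene, a signal scaled by size factors, which was used for depth. Their fold change and p columns were not used. Control columns of the PBRM1 table match their group but no single sample and are called a, b and c. The authors' mean normalized counts added up to 27111321 (PBRM1), 63114292 (IRF1) and 11858741 (MUC1). Because the deposited values are TPM, no count model was fitted and no counting interval was computed.

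Values were analysed as log2(TPM + 1), for genes with at least 1 TPM in at least 3 of 6 libraries, with limma 3.58.1 in R 4.3.3 (lmFit and trended eBayes, two-sided tests, Benjamini-Hochberg over all genes tested). In the BT-549 fits on TPM as deposited the prior degrees of freedom were infinite, so that the SE there follows the expression level. Differences between experiments came from a 6-group model on rescaled TPM. Tables were normalized separately, and levels were not tested across them. The scripts were tested on simulated data. In the PBRM1 experiment silenced and control libraries of the same number deviated together from their groups (correlations 0.455, 0.309 and 0.290). The number in the column names was used as a pairing in the replicate block, and the main fits were unpaired. What that number stands for is not stated. PBRM1shRNA library 2 and control library b held the highest short noncoding RNA shares of their groups (77.3% and 79.2%). The part of these shares in the correlations was not tested.

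The 9 genes and the lists were chosen with earlier results of these data known. All 9 are described. From each other list the called genes are named, at most 4 in each direction, or, with none called, the gene with the largest change past the test, and for PDCD1LG2 the 5 nearest genes. Some genes that this rule selects are not reported here. Alternatives were a pseudocount of 0.1, no filter, a mean of at least 5 TPM, removal of short noncoding RNAs, quantile and trimmed-mean scaling, no trend, no variance moderation, array weights (not converged in 2 fits), a replicate block and leaving out each library. Fits joining the removal of short noncoding RNAs with the block or with unmoderated variances were added after seeing the data. Promoter windows came from RefSeq (GRCh38.p14) and gene coordinates from the GENCODE annotation of GRCh38.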

Additional observations from a re-analysis of the deposited data

Results flagged for a closer look

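The effect of silencing on 2 TIGIT ligand genes differed between experiments, with opposite directions on rescaled TPM. PVR differed by -0.96 ± 0.059 (SE) for PBRM1 minus IRF1 (rescaled log2 folds -0.76 and 0.20) and by -1.31 ± 0.059 (SE) for PBRM1 minus MUC1 (folds -0.76 and 0.55). NECTIN2 differed by -0.73 ± 0.077 (SE) for PBRM1 minus MUC1 (folds -0.24 and 0.49). The differences were tested in the limma model of all 18 libraries, with adjusted p = 5.91e-11, 3.99e-13 and 1.02e-07. On TPM as deposited the groups of PVR overlapped in the IRF1 experiment (log2 fold 0.07, limma adjusted p = 0.789, and -0.0018 without IRF1shRNA library 2), as did those of NECTIN2 in the PBRM1 experiment (-0.16, limma adjusted p = 0.104). Hairpin, table and control group differ together in the first pair, and the cell line as well in the others, so that these cannot be told apart.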

How the results depend on the processing

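In the PBRM1 experiment 411 genes were called lower, against 646 with a pseudocount of 0.1, 229 with a mean of at least 5 TPM, 879 on rescaled TPM, 879 with the replicate block on rescaled TPM and 874 on rescaled TPM without variance moderation. The ligand genes past the test and lower numbered 5, against 3 with a mean of at least 5 TPM, 4 without variance moderation, 6 with quantile or trimmed-mean scaling, 7 with no filter, array weights or the replicate block as deposited and 9 in each of the 3 rescaled fits. LGALS9 and TNFRSF14 are among the 9 and entered those fits only through their control libraries. They are also among the 7 with no filter, where CD276 and NECTIN2 did not pass (limma adjusted p = 0.222 and 0.183). The 7 with array weights or the replicate block include CD276 and NECTIN2 instead. Leaving out 1 library gave 258 to 423 genes called lower and 4 to 7 ligand genes lower (4 without control a, 7 without control b). In the IRF1 experiment 5 genes were called higher, against 25 (pseudocount 0.1), 3 (mean of at least 5 TPM), 82 (rescaled, with or without the block), 81 (rescaled, unmoderated), 8 (quantile), 8 (trimmed mean) and 9 (array weights). Genes called lower numbered 163, against 325 (pseudocount 0.1), 94 (mean of at least 5 TPM), 332 (rescaled, with or without the block) and 327 (rescaled, unmoderated). Ligand genes lower numbered 1, against 2 with no filter, quantile scaling, trimmed-mean scaling or no trend, 0 with a mean of at least 5 TPM, 3 with array weights, 4 rescaled with or without the block and 3 rescaled and unmoderated. Where there were 2, the gene beside CD276 was TNFRSF14 with no filter and CD47 with quantile scaling, trimmed-mean scaling or no trend. Ligand genes higher numbered 0, against 1 with rescaled, quantile, trimmed-mean and array-weight fits and both added fits. Leaving out 1 library gave 4 to 8 genes called higher, 87 to 190 called lower and 1 to 2 ligand genes lower (2 without IRF1shRNA 2). In the MUC1 experiment called genes numbered 177 higher and 178 lower, against 269 and 353 (pseudocount 0.1) and 102 and 109 (mean of at least 5 TPM). Ligand genes lower numbered 1, against 2 with quantile scaling and 1 to 2 when leaving out 1 library (2 without vehicle 3), and leaving out 1 library gave 139 to 180 genes called higher and 152 to 198 called lower. The cause of these moves was not tested, except that a stricter filter tests fewer genes. The array-weight fits of the PBRM1 and IRF1 experiments did not converge.

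Reversed signs concerned ligand genes that did not pass the test in the IRF1 experiment. NECTIN2 was -0.04 as deposited and 0.068 rescaled (also with the block or unmoderated), 0.047 quantile scaled, 0.029 trimmed-mean scaled and 0.0050 with array weights. NT5E was -0.05 as deposited and 0.071 rescaled (also with the block or unmoderated), 0.097 quantile scaled and 0.035 trimmed-mean scaled. Leaving out 1 library gave NT5E folds of -0.15 to 0.073, NECTIN2 folds of -0.095 to 0.015 and PVR folds of -0.0018 to 0.17. On TPM as deposited 3 of 5 ligand genes differed for PBRM1 minus IRF1, 3 of 5 for PBRM1 minus MUC1 and 4 of 5 for IRF1 minus MUC1 (5, 6 and 5 of 6 on rescaled TPM), and the difference of CD47 for PBRM1 minus IRF1 was 0.069 (rescaled -0.11). Counts of differing ligand genes were 5, 6 and 5 to 6 when leaving out 1 library.

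In the IRF1 and MUC1 experiments same-numbered libraries did not all deviate together, with correlations of -0.209, 0.0854 and 0.228 (IRF1) and 0.0530, -0.0364 and 0.00575 (MUC1). With the replicate block, genes called higher and lower numbered 108 and 411 (PBRM1), 5 and 163 (IRF1) and 178 and 181 (MUC1). Beyond CD276 and NECTIN2 in the PBRM1 experiment, the block changed no call of a ligand gene on TPM as deposited. Of 72 alternative fits of single ligand folds in the MUC1 experiment 71 kept direction and side of the threshold, of 82 in the PBRM1 experiment 69 and of 59 in the IRF1 experiment 34. These totals do not include the fits that left out a library. Few reads stood behind some ligand genes in the MUC1 experiment, with authors' mean normalized counts of 15.5 for CD274, 1.22 for LGALS9 and 0.305 for TNFRSF14, whereas CD274 had 264 in the IRF1 experiment.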

Other observations

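The 2 BT-549 control groups are both labelled with a stable control shRNA and stood in separate tables. Rescaled CD274 was 21.7, 21.8 and 22.6 in the control of the PBRM1 experiment and 2.99, 3.0 and 2.37 in the control of the IRF1 experiment. Summed interferon targets as deposited were 3166 to 3588 TPM in the control of the PBRM1 experiment and 525 to 594 TPM in the control of the IRF1 experiment. Rescaled NT5E was closer, at 408, 400.4 and 412 in the control of the PBRM1 experiment and 299, 289.9 and 278 in the control of the IRF1 experiment. Levels were not tested across tables.

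Over the PBRM1 and IRF1 experiments alone, the genes whose rescaled folds lay nearest to those of CD274 among 12226 genes were FN1 (-1.48 and -0.28), ARHGAP26 (-1.43 and -0.25) and RAI14 (-1.52 and -0.23). They were chosen after their values were seen and rest on 2 values a gene.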
